A study of Homo sapiens with 6 samples.

Results

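Long noncoding RNAs (lncRNAs) are transcripts that act without being translated, and 10 of the best studied ones were followed here in HCT116 cells with and without overexpressed RBM47. They are NEAT1, MALAT1, KCNQ1OT1, TUG1, PVT1, UCA1, H19, LINC-PINT, MIR22HG and CYTOR, chosen by symbol, and all 10 were found among the 28491 genes of the deposited count table and in the FPKM table. The table types 7742 genes as lncRNA, and it types TUG1 as protein coding. HCT116 is a human colorectal carcinoma line. Cells were transfected with a control plasmid (NC, 3 libraries) or with one that expresses RBM47 (RBM47-OE, 3 libraries), and 48 h later their poly(A) RNA was sequenced, so both groups share the transfection and the line. The labels give the plasmid as pcDNA3.1-3xFlag-RBM47 and the methods as pIRES-hrGFP-1a, and they also name different library kits. No source says whether replicates were separate cultures, so p-values measure the spread between these libraries only, which may be technical.

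These RNAs differ in where they work. NEAT1 is the scaffold around which paraspeckles, nuclear bodies that hold RNA-binding proteins, are built, and MALAT1 gathers in nuclear speckles beside splicing factors. KCNQ1OT1 and H19 are read from imprinted loci of chromosome 11, where KCNQ1OT1 silences neighbours in cis on the paternal copy and H19 is expressed from the maternal copy. PVT1, UCA1 and CYTOR are known for high levels in tumours, TUG1 is a widely expressed and partly nuclear RNA, LINC-PINT was described as induced by p53, and MIR22HG is the host transcript of a microRNA. RBM47 is itself an RNA-binding protein that acts on splicing, stability and editing of transcripts.

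Several of the genes also carry microRNAs, and these are shown because each ties a member to a small RNA that poly(A) libraries do not measure. Mature sequences from RefSeq (GRCh38) were matched within 4 of the 10 members, each on the strand of its host, and in the lines below the seed (bases 2 to 8) is in capitals. GENCODE 44 also places MIR612 within NEAT1, and MIR1204, MIR1205, MIR1206, MIR1207 and MIR1208 within PVT1, on the same strand.
miR-22-3p of MIR22HG, chr17:1713914-1713935, minus strand: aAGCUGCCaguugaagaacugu
miR-22-5p of MIR22HG, chr17:1713952-1713973, minus strand: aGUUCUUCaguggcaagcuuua
miR-29a-3p of LINC-PINT, chr7:130876748-130876769, minus strand: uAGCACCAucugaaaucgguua
miR-29b-3p of LINC-PINT, chr7:130877467-130877489, minus strand: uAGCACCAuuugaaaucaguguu
miR-675-3p of H19, chr11:1996768-1996787, minus strand: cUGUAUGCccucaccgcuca
miR-675-5p of H19, chr11:1996800-1996822, minus strand: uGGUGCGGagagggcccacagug
miR-4435 of CYTOR, chr2:87629764-87629785, plus strand: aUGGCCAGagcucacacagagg
miR-4435 of MIR4435-2HG, chr2:111321061-111321082, minus strand: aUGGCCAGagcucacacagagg
The 2 miR-29 sequences share 1 seed. They lie inside LINC-PINT as GENCODE 44 draws it, miR-29a in an intron and miR-29b in an exon. The other microRNAs printed here lie in exons of their hosts. The last 2 lines are the same sequence at 2 places of chromosome 2, since CYTOR and MIR4435-2HG are partial copies of each other. Of the 15220 windows of 100 bases in the exons of CYTOR, 7323 (48.1%) had an exact match in MIR4435-2HG. Since the authors counted uniquely mapped reads, reads from these stretches could have been lost or placed on either copy, and the CYTOR level is uncertain for that reason.

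The labels give the sequenced molecule as polyadenylated RNA, whereas the mature 3′ ends of MALAT1 and of the long NEAT1 isoform are known to end without a poly(A) tail, and runs of A inside a transcript can also be captured. The longest A run of the exons, read on the gene's strand in GRCh38, is shown in capitals for the 3 nuclear members.
NEAT1, chr11:65440839-65440868, plus strand: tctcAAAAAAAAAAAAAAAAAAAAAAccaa
MALAT1, chr11:65506090-65506119, plus strand: tctagcttAAAAAAAAAAAAAgcaaaagat
KCNQ1OT1, chr11:2610717-2610746, minus strand: tAAAAAAAAAAAAAAAAAAAAAAAAAAAAA
The runs were 22, 13 and 29 bases long. Among the 16233 tested genes with exons in GENCODE 44, the median longest run was 7 bases, and 3.97%, 20.9% and 0.733% had a run at least as long as that of NEAT1, MALAT1 and KCNQ1OT1. Long runs were not particular to these members, since LINC-PINT had 26 bases, TUG1 18 and CYTOR 13. PVT1, UCA1, MIR22HG and H19 had 11, 7, 7 and 5. The shares were not matched for exonic length, which was 22767 bases for NEAT1, 10434 for MALAT1 and 92625 for KCNQ1OT1. What A runs contributed to the counts was not tested.

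Each library held 26792409 to 35477983 counts on genes. RBM47 itself had 501 to 797 counts in NC and 34858 to 41818 in RBM47-OE. Of 10 epithelial markers, 7 were above 1 FPKM in every library and LGALS4 and VIL1 were under 0.1, while the immune markers summed to at most 0.48 FPKM and the endothelial markers to at most 0.16 in any library. The fibroblast markers summed to 1.31 to 1.73 FPKM, nearly all of it COL1A1, with COL3A1 under 0.1. Gene levels in the RBM47-OE libraries followed exonic GC content. Across 16233 genes, which are not independent replicates, the rank correlation (Spearman's rho) of GC content with a library's log2 distance to the average of NC was -0.41, -0.59 and -0.67 in RBM47-OE replicates 1, 2 and 3, against -0.16 to 0.13 when each NC library was set against the other NC libraries. A fit that takes each library's trend with GC content out of the counts (the GC offset) is therefore given beside the results. It removes every change that follows GC content.

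UCA1 stood far above the other members. Its level, in FPKM (fragments scaled to gene length and library size), was 29.5, 30.6 and 32.5 in the NC libraries (replicates 1, 2 and 3, here and below) and 31.5, 29.7 and 31.8 in RBM47-OE. It was above 99.8% of the 7665 lncRNA genes and members of the FPKM table and above 92.7% of its 16368 protein-coding genes. UCA1 alone took 41.0% to 44.6% of the reads on the 10 members, which together received 9168 to 11972 reads of each library, 2.78% to 3.03% of those on lncRNA genes.

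TUG1 followed at a mean of 3.62 FPKM over the 6 libraries, then PVT1 with 1.73 to 2.30, NEAT1 with 1.53 to 2.11, MALAT1 with 1.33 to 2.17, CYTOR with 0.93 to 1.30 and H19 with 0.70 to 1.09. NEAT1 and MALAT1, often among the most abundant RNAs of the nucleus, were above 94.7% and 94.2% of the lncRNA genes here. Among the protein-coding genes both ranked lower, NEAT1 above 43.97% and MALAT1 above 42.27% of them. The name abundant did not hold for the last 3. MIR22HG had 0.15 to 0.45 FPKM, LINC-PINT 0.08 to 0.15, and KCNQ1OT1 was listed at 0.01 in all 6 libraries, which rested on 28 to 43 reads over 92625 exonic bases. None of the 10 was absent, and these 3 were near zero per length.

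**Figure D1:**
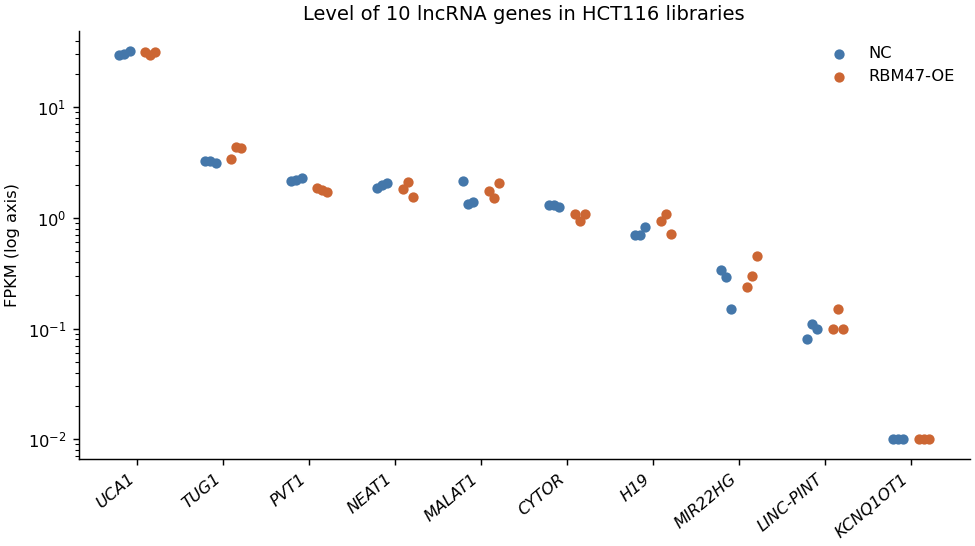
FPKM of each of the 10 lncRNA genes (log axis) in the 3 NC and 3 RBM47-OE libraries, 1 point per library, ordered by mean level. UCA1 lies between 29.51 and 32.47 in all libraries, and KCNQ1OT1 is listed at 0.01 in all.

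Not every step of this order was larger than the spread. NEAT1 and MALAT1 overlapped in both groups, at 1.85 to 2.05 and 1.33 to 2.17 FPKM in NC. PVT1 and NEAT1 were apart in NC and overlapped in RBM47-OE, as did CYTOR and H19, and the other neighbours in the order were apart in both groups. The order also depends on the gene models, since counts and FPKM together give back the gene length that was used. After division by a factor of 1.13, the median ratio over 10913 genes, it came to 22750 bases for NEAT1, 10153 for TUG1, 4154 for UCA1 and 17671 for CYTOR, against joined exons of 22767, 10151, 4154 and 17782 bases in GENCODE 44. It was shorter than the joined exons for MALAT1 (8827 against 10434 bases) and H19 (2893 against 3462), so the gene models behind the FPKM values differ from GENCODE 44 for some members. Where the length is that of all joined exons, a gene read mainly as a short isoform has a low FPKM. By counts scaled to library size alone (CPM), in which length plays no part, CYTOR came before MALAT1 in every library. PVT1 came before NEAT1 and TUG1 in NC but not in every RBM47-OE library, since it had 48.0 CPM in replicate 2, where NEAT1 had 51.7 and TUG1 48.2.

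At an adjusted p-value under 0.05, PVT1 and CYTOR were lower and TUG1 was higher in RBM47-OE (quasi-likelihood test of edgeR, Benjamini-Hochberg adjustment over all genes tested). The other 7 did not pass. All 10 members were among the 16260 genes with enough reads to be tested, of which 35.9% passed at that threshold, 16.9% as lower and 19.1% as higher, so 3 of 10 is close to the background. Among the 2286 tested genes typed as lncRNA, 9.01% passed, 5.64% as lower and 3.37% as higher. None of the 10 met the study's thresholds, a p-value below 0.01 before adjustment with a fold change above 1.5, which 1.51% of all genes met as higher and 0.873% as lower, and 1.36% and 1.84% of the lncRNA genes. Unadjusted, 3 members had a p-value under 0.01. The largest change was that of CYTOR, and it stayed under a fold change of 1.5. The median log2 fold change of the 10 was -0.0048, with 5 above 0 and 5 below, against 0.00 for all genes and -0.02 for the lncRNA genes.

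**Figure D2:**
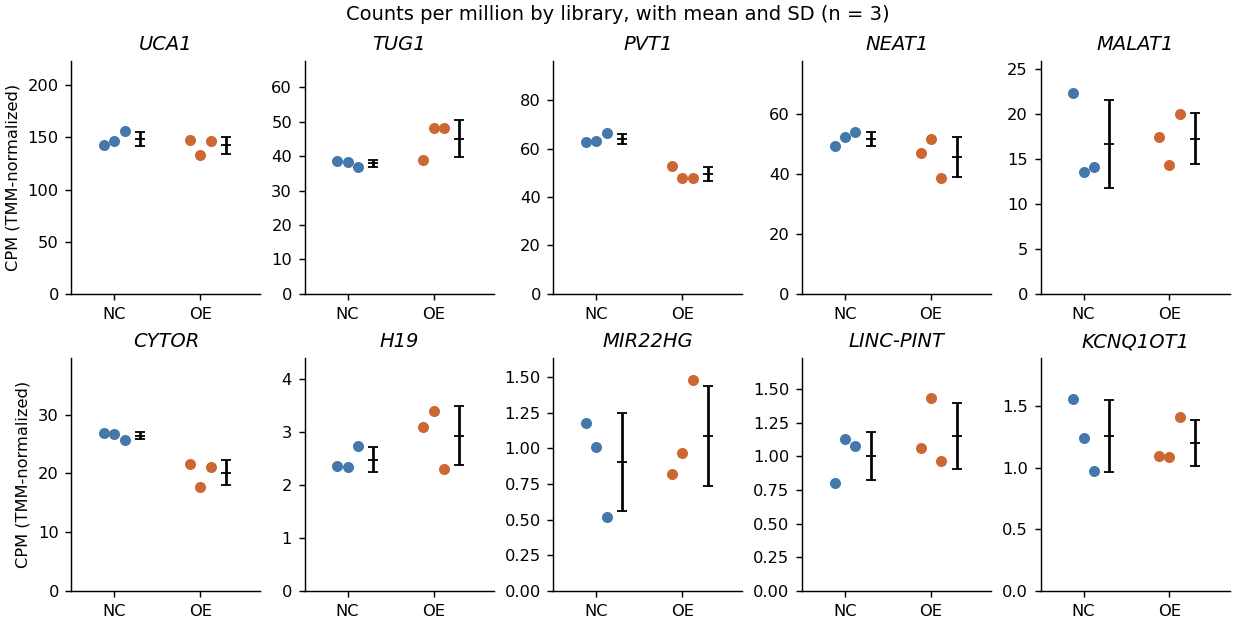
CPM (TMM-normalized) of each lncRNA gene, 1 point per library for NC and RBM47-OE (OE), with the mean and SD of 3 libraries in black and axes starting at 0. PVT1 and CYTOR have all RBM47-OE libraries below all NC libraries, and TUG1 has all above by a margin that is thin for replicate 1.

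PVT1, the transcript that borders MYC on chromosome 8, was lower in every RBM47-OE library. It had 62.9, 62.9 and 66.4 CPM in NC and 52.6, 48.0 and 47.7 in RBM47-OE. The groups did not overlap. Group means were 64.1 ± 2.03 (SD, n = 3) in NC and 49.4 ± 2.75 (SD, n = 3), and PVT1 fell by 0.37 on the log2 scale (SE 0.075, edgeR adjusted p = 0.00051), a fold of 0.772 with a 95% interval of 0.694 to 0.858. With the GC offset it fell by 0.40 (SE 0.062, edgeR adjusted p = 0.00026), and it passed with each of the 6 libraries left out in turn. With limma on log2(FPKM + 1) values of all genes, without a filter on low values, it no longer passed (limma adjusted p = 0.081).

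CYTOR, a cytoplasmic RNA linked to cell growth and the cytoskeleton, lies on chromosome 2 from 87454781 to 87636740. It had 26.9, 26.6 and 25.7 CPM in NC and 21.6, 17.7 and 21.1 in RBM47-OE. Again every RBM47-OE library was below every NC library, with replicate 2 lowest. On average CYTOR had 26.4 ± 0.620 (SD, n = 3) in NC and 20.1 ± 2.14 (SD, n = 3), and CYTOR fell by 0.39 on the log2 scale (SE 0.095, edgeR adjusted p = 0.0023), a fold of 0.761 with a 95% interval of 0.664 to 0.871. With the GC offset it fell by 0.49 (SE 0.085, edgeR adjusted p = 0.00065). With limma on log2(FPKM + 1) values it no longer passed (limma adjusted p = 0.086).

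MIR4435-2HG, the other copy, passed with the GC offset and not without it. MIR4435-2HG had 682, 770 and 733 counts in NC against 652, 682 and 665 in RBM47-OE. It showed a log2 fold change of -0.20 (SE 0.096, edgeR adjusted p = 0.098), and of -0.29 with the GC offset (SE 0.082, edgeR adjusted p = 0.018). The difference between the copies was not tested. Without the offset its 95% interval of -0.40 to -0.01 overlaps that of CYTOR, -0.59 to -0.20. The counted reads of both copies were also summed into 1 gene, a setting added after the values were seen. The log2 fold change was then -0.30 (SE 0.078, edgeR adjusted p = 0.0042). This sum does not depend on which copy a counted read was placed on. It lacks any reads lost because they mapped to both copies, so it cannot settle the level of either.

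TUG1, on chromosome 22 from 30969245 to 30979395, was higher in RBM47-OE, but the call was fragile. It had 38.6, 38.2 and 36.7 CPM in NC and 38.8, 48.2 and 48.3 in RBM47-OE. RBM47-OE replicates 2 and 3 stood clear of the NC libraries, whereas replicate 1 lay just above the highest of them. TUG1 averaged 37.9 ± 0.990 (SD, n = 3) in NC and 45.1 ± 5.46 (SD, n = 3), with a log2 fold change of 0.25 (SE 0.087, edgeR adjusted p = 0.026) and a 95% interval of 0.07 to 0.43. With the GC offset the value was 0.03 (SE 0.066, edgeR adjusted p = 0.83). TUG1 also failed to pass in 5 of the 6 fits with a library left out, all but that without RBM47-OE replicate 1, where the value was 0.36 (edgeR adjusted p = 0.00022).

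For PVT1, CYTOR and TUG1 alike the 3 libraries of a group lay on 1 side of the other 3, and the exact permutation test (two-sided) then returns p = 0.10, its minimum with 3 libraries a group. Groups that do not overlap were found for 46.5% of all genes tested (23.2% higher and 23.4% lower) and for 20.0% of the lncRNA genes (7.79% higher and 12.2% lower).

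**Figure D3:**
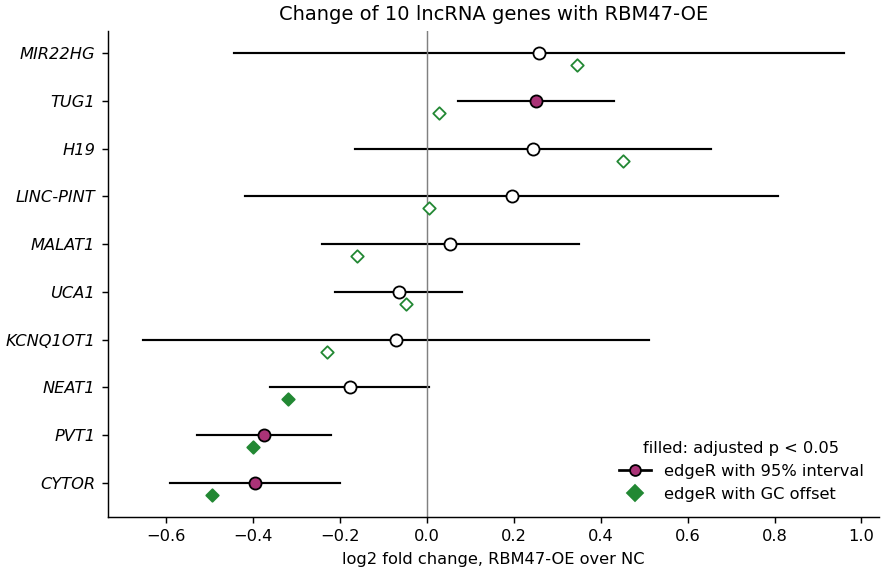
Log2 fold change (RBM47-OE over NC) of the 10 lncRNA genes. Circles are edgeR values with 95% intervals, diamonds are edgeR values with the GC offset, and filled symbols have an adjusted p-value under 0.05. PVT1 and CYTOR are filled in both fits, TUG1 in the first only (0.25, against 0.03 with the offset) and NEAT1 in the second only (-0.18, against -0.32).

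The 2 RNAs of nuclear bodies did not pass. NEAT1, on chromosome 11 from 65422774 to 65445540, had 49.2, 52.2 and 54.0 CPM in NC and 47.1, 51.7 and 38.6 in RBM47-OE. RBM47-OE replicate 3 was the lowest library, and replicate 2 lay within the NC range. The log2 fold change was -0.18 (SE 0.089, edgeR adjusted p = 0.13), with a 95% interval of -0.36 to 0.01. NEAT1 passed as lower with the GC offset, at -0.32 (SE 0.083, edgeR adjusted p = 0.012), with an offset for gene length in its place, at -0.35 (edgeR adjusted p = 0.0023), and without RBM47-OE replicate 2, at -0.27 (edgeR adjusted p = 0.037). Counts per gene do not separate its short and long isoforms.

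MALAT1, on the same chromosome from 65497640 to 65508073, had 22.3, 13.6 and 14.1 CPM in NC and 17.4, 14.3 and 20.0 in RBM47-OE. NC replicate 1 was the highest library of all, and the groups overlapped. MALAT1 averaged 16.7 ± 4.91 (SD, n = 3) in NC and 17.2 ± 2.84 (SD, n = 3), and the log2 fold change was 0.05 (SE 0.14, edgeR adjusted p = 0.80), with a 95% interval of -0.24 to 0.35. Without NC replicate 1 it was 0.32 (edgeR adjusted p = 0.076). The sign turned with the GC offset, to -0.16 (edgeR adjusted p = 0.50), so no direction can be given.

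The genes that encode proteins of these bodies were counted in lists. The values are RNA levels, and no protein was measured. Of 20 genes of paraspeckle proteins tested, 7 were lower and 3 higher at an adjusted p-value under 0.05, with a median log2 fold change of 0.01 against 0.00 for all genes. That is 50.0% of the list, against 35.9% of all genes tested. RBM14, which is needed for the assembly of paraspeckles, was lower at -0.32 (SE 0.072, edgeR adjusted p = 0.0015). SRSF10, a splicing factor, and ZC3H6, a zinc-finger protein, were the leading higher genes, at 0.37 (edgeR adjusted p = 0.0016) and 0.59 (edgeR adjusted p = 0.00026). Of 24 genes of nuclear speckle proteins, 10 were higher and 4 lower, which is 58.3% of the list, and the median was at 0.08. Among these the splicing factor SRSF2 was lower at -0.49 (SE 0.079, edgeR adjusted p = 8.8e-05) and the kinase of splicing factors SRPK1 was higher at 0.37 (SE 0.080, edgeR adjusted p = 0.00096). With the GC offset, where 14.5% of all genes passed (5.97% higher and 8.57% lower), 9 genes of paraspeckle proteins were lower and 0 higher, and 7 genes of speckle proteins were lower and 2 higher. The medians of both lists turned, to -0.17 and -0.12. RBM14 passed in that fit too, at a smaller -0.19 (edgeR adjusted p = 0.029), as did SRSF2 and SRPK1, while SRSF10 and ZC3H6 did not. Over all fits, 3 to 9 genes of paraspeckle proteins were lower and 0 to 5 higher. For speckle proteins 1 to 11 were higher and 2 to 8 lower, so the shares of both lists depend on the fit.

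Neither imprinted lncRNA passed. H19, on chromosome 11 from 1995166 to 2004552, had 2.36, 2.34 and 2.75 CPM in NC and 3.09, 3.39 and 2.31 in RBM47-OE. RBM47-OE replicates 1 and 2 were above all NC libraries and replicate 3 was below them. The log2 fold change was 0.24 (SE 0.20, edgeR adjusted p = 0.36), with a 95% interval of -0.16 to 0.65, and with the GC offset 0.45 (SE 0.19, edgeR adjusted p = 0.12). IGF2, the growth factor gene paired with H19, had 0.06 (SE 0.086, edgeR adjusted p = 0.62), and it passed as higher with the GC offset, at 0.27 (SE 0.068, edgeR adjusted p = 0.011).

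KCNQ1OT1, from 2597308 to 2700003, had 41, 43 and 28 counts in NC and 36, 35 and 41 in RBM47-OE. The log2 fold change was -0.07 (SE 0.28, edgeR adjusted p = 0.88), and its 95% interval of -0.65 to 0.51 shows how little this depth can tell. KCNQ1, the potassium channel gene in which it lies on the opposite strand, had 270 to 486 counts, and 121 exonic bases are shared. Whether strand was used in counting is not given in the sources used here. If it was not, reads of the shared bases cannot be told apart. Reads from KCNQ1 introns that KCNQ1OT1 covers could then also be among its 28 to 43 counts, which was not tested. KCNQ1 had a log2 fold change of 0.29 (SE 0.12, edgeR adjusted p = 0.072), and CDKN1C, the cell cycle inhibitor 183 kb away that KCNQ1OT1 is known to silence, had 0.13 (SE 0.080, edgeR adjusted p = 0.20). Both passed as higher with the GC offset, KCNQ1 at 0.50 (SE 0.11, edgeR adjusted p = 0.0044) and CDKN1C at 0.35 (SE 0.059, edgeR adjusted p = 0.00051), while KCNQ1OT1 had -0.23 (edgeR adjusted p = 0.65).

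UCA1, on chromosome 19 from 15828206 to 15836328, was the most precisely measured member. It had 143, 147 and 156 CPM in NC and 148, 133 and 146 in RBM47-OE, and the groups overlapped. UCA1 averaged 148.8 ± 6.79 (SD, n = 3) in NC and 142.3 ± 8.14 (SD, n = 3). The log2 fold change was -0.06 (SE 0.071, edgeR adjusted p = 0.52), and the 95% interval of the fold, 0.864 to 1.06, leaves room only for small changes.

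The last 2 members rested on few reads. MIR22HG, on chromosome 17 from 1711447 to 1717174, had 31, 35 and 15 counts in NC and 27, 31 and 43 in RBM47-OE. The gene showed a log2 fold change of 0.26 (SE 0.34, edgeR adjusted p = 0.59), with a 95% interval of -0.44 to 0.96. LINC-PINT, on chromosome 7 from 130791264 to 131110176, had 21, 39 and 31 counts in NC and 35, 46 and 28 in RBM47-OE. The gene showed a log2 fold change of 0.20 (SE 0.30, edgeR adjusted p = 0.65), with a 95% interval of -0.42 to 0.81. For both genes the groups overlapped, and an increase by a fold of 1.5 lies within both intervals.

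**Figure D4:**
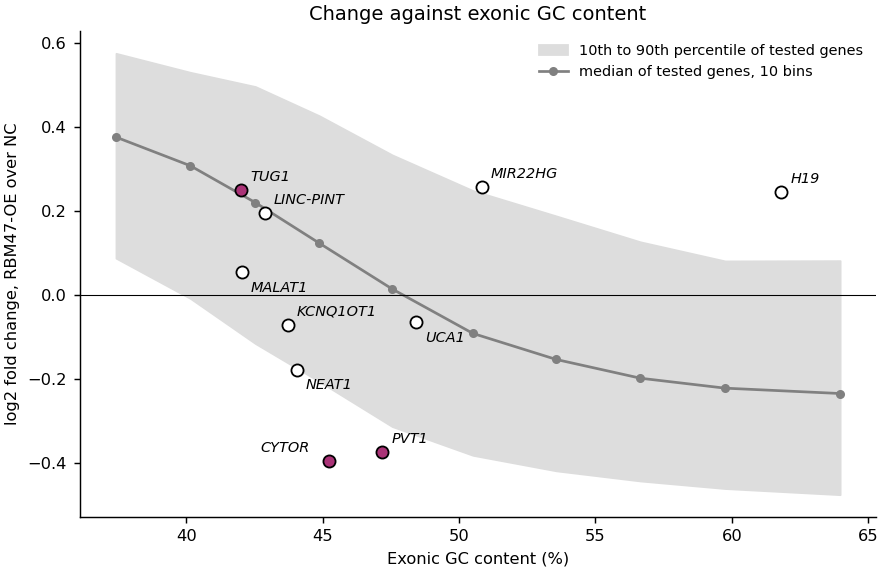
Log2 fold change (RBM47-OE over NC) of the 10 lncRNA genes against exonic GC content, filled where the edgeR adjusted p-value is under 0.05. The grey line joins the medians of 10 bins of all tested genes by GC content and the band runs from the 10th to the 90th percentile. TUG1 lies by the line, PVT1 and CYTOR lie below the band, H19 lies above it, and NEAT1 and MIR22HG lie at its edges.

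The GC content of the exons differed between the members. It was 42.0% for TUG1 and MALAT1, 42.9% for LINC-PINT, 43.7% for KCNQ1OT1, 44.1% for NEAT1, 45.2% for CYTOR, 47.2% for PVT1, 48.4% for UCA1, 50.8% for MIR22HG and 61.8% for H19, and the median of the 10 was 44.6% against 49.0% for all genes tested. In the bin of all genes that holds TUG1, LINC-PINT and MALAT1 the median log2 fold change was 0.22, and these members had 0.25, 0.20 and 0.05. In the bin that holds NEAT1, KCNQ1OT1 and CYTOR the median was 0.12, and these members had -0.18, -0.07 and -0.39. The bin that holds PVT1 and UCA1 had a median of 0.01. H19 lies in the bin of highest GC content, where the median was -0.23.

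The protein-coding genes on either side of the members were read in the same fit. Of 18 such genes, 13 were tested, of which 5 (38.5%) were lower and 1 was higher, against 16.9% and 19.1% of all genes. In the fit with the GC offset 2 were lower and 3 higher, against 8.57% and 5.97% of all genes, and the median of the 13 was -0.03. MYC, the oncogene 51.6 kb from PVT1, was lower at -0.22 (SE 0.073, edgeR adjusted p = 0.023) but did not pass with the GC offset, at -0.11 (edgeR adjusted p = 0.25). MORC2, an ATPase gene that lies 470 bases from TUG1, was lower at -0.31 (SE 0.087, edgeR adjusted p = 0.0065), and SMTN on the other side of TUG1 at -0.42 (SE 0.072, edgeR adjusted p = 0.00013). Both passed with the GC offset too, MORC2 at -0.28 (edgeR adjusted p = 0.012) and SMTN at -0.23 (edgeR adjusted p = 0.0071). MRPL23, a mitochondrial ribosomal protein gene beside H19, was lower at -0.33 (SE 0.085, edgeR adjusted p = 0.0041) and did not pass with the offset, at -0.12 (edgeR adjusted p = 0.24). TLCD2, 1069 bases from MIR22HG, was the higher gene, at 0.54 (SE 0.17, edgeR adjusted p = 0.016), and passed with the offset, at 0.60 (edgeR adjusted p = 0.020). WDR81 overlaps MIR22HG on the opposite strand without sharing exons and was lower at -0.38 (SE 0.096, edgeR adjusted p = 0.0033), and MKLN1 shares 81 exonic bases with LINC-PINT on the opposite strand and was higher at 0.49 (SE 0.086, edgeR adjusted p = 0.00016). Neither passed with the GC offset, WDR81 at -0.16 (edgeR adjusted p = 0.23) and MKLN1 at 0.15 (edgeR adjusted p = 0.097).

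Other well-known lncRNAs were read beside the members. Of 50 written down, 37 were tested, of which 7 were higher, 4 lower and 26 did not pass, with a median log2 fold change of 0.07. The share that passed was 29.7%, against 9.01% of the lncRNA genes and 35.9% of all genes tested. These sets were not matched for read depth, on which a call depends, so the shares do not show an enrichment. NORAD, a cytoplasmic RNA that binds Pumilio proteins, went from a mean of 39.1 to 55.5 FPKM, with a log2 fold change of 0.43 (SE 0.073, edgeR adjusted p = 0.00013). OIP5-AS1 was higher at 0.28 (SE 0.075, edgeR adjusted p = 0.0052), and DANCR and SNHG12, which both host small nucleolar RNAs, were lower at -0.35 (SE 0.073, edgeR adjusted p = 0.00073) and -0.41 (SE 0.095, edgeR adjusted p = 0.0016). With the GC offset 3 were higher and 7 lower, against 5.97% and 8.57% of all genes. NORAD then passed at a smaller 0.20 (edgeR adjusted p = 0.026), DANCR and SNHG12 passed, and OIP5-AS1 did not. Over all fits 1 to 8 of the list were higher and 2 to 8 lower.

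Genes of factors that process or degrade nuclear RNA were counted last, again by their RNA. Of 29 tested, 8 rose and 8 fell, which is 55.2% of the list against 35.9% of all genes, and the median was at 0.07. MTREX, the helicase that feeds RNA to the nuclear exosome, was higher at 0.44 (SE 0.091, edgeR adjusted p = 0.00073) and its partner RBM7 at 0.38 (SE 0.093, edgeR adjusted p = 0.0025). EXOSC4, an exosome subunit, was lower at -0.50 (SE 0.079, edgeR adjusted p = 6.5e-05) and SRRT, which links the cap to RNA decay, at -0.42 (SE 0.068, edgeR adjusted p = 7.9e-05). Under the GC offset 0 were higher and 7 lower, against 5.97% and 8.57% of all genes, and the median turned to -0.10. EXOSC4 and SRRT then passed at smaller values, -0.31 (edgeR adjusted p = 0.0029) and -0.24 (edgeR adjusted p = 0.0059), while MTREX and RBM7 did not pass. Over all fits 0 to 12 were higher and 3 to 8 lower.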

How the data were processed

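Poly(A) RNA of HCT116 cells gave 3 libraries for NC and 3 for RBM47-OE. Reads were trimmed by the authors and placed on GRCh38 with HISAT2, and those that mapped uniquely were counted. The deposited counts are not normalized. The FPKM table, also deposited, holds 2 decimals. The counting tool, annotation release and strand setting are not given in the sources used here. Totals were 26792409 to 35477983 counts per library.

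Genes were tested with edgeR 4.0.16 in R 4.3.3 (filterByExpr, minimum count 10 and minimum total count 15, TMM, quasi-likelihood test, condition only). Standard errors are the size of the log2 fold change over the square root of F. CPM in the text are TMM-normalized. The GC and length offsets are loess curves with a span of 0.3. Coordinates, joined exons and GC content came from GENCODE 44 and the GRCh38 sequence, matched by identifier without version for 28416 of 28491 genes, and the versions differ for 8 of the 10 members. Alternatives were DESeq2 1.42.0, limma 3.58.1 on log2(FPKM + 1) and log2(FPKM + 0.1), other scalings and filters, the replicate number as a block, and each library left out. Each of these tools was first run on simulated counts. Those had larger changes than any member and no trend with GC content or gene length. The run therefore does not check the offsets or calls on changes of the members' size.

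The members and gene lists were chosen with earlier results of these data known. Genes named beside the members are the nearest protein-coding gene on each side, overlapping genes, and the 2 genes of lowest p in each direction of each list. Some genes that this rule picks are not reported here.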

Additional observations from a re-analysis of the deposited data

How the results depend on the processing

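At an adjusted p-value under 0.05, 1 member was higher and 2 were lower, and 0 met the study's thresholds under any alternative. The count of higher members was 0 with the GC offset, with the GC offset and replicate block, with the length offset and with limma on FPKM under each pseudocount or filter. The count of lower members was 3 with the GC offset, with the GC offset and replicate block and with the length offset. It was 1 with limma on log2(FPKM + 1) and log2(FPKM + 0.1), and 0 with limma on log2(FPKM + 1) without a filter. With 1 library left out, 0 to 1 members were higher and 2 to 3 lower. Over all genes, 5840 passed in edgeR, 2364 with the GC offset, 2498 with the GC offset and block, 2328 with limma without a filter and 3765 without NC replicate 2.

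Of 188 member values under the alternatives, 1 of them the summed CYTOR reads chosen after seeing the data, 155 kept direction and side of the threshold, 15 lost a call, 4 gained one and 14 turned sign. None of those that turned sign passed the test in either fit. MALAT1 turned to -0.16 with the GC offset, -0.15 with that offset and the block and -0.055 with the length offset. UCA1 turned to 0.0063 with limma on log2(FPKM + 1), filtered or not, and 0.0065 with log2(FPKM + 0.1), and LINC-PINT to -0.00051 with the length offset. With a library left out, MALAT1 ranged from -0.079 to 0.32, KCNQ1OT1 from -0.22 to 0.10 and MIR22HG from -0.020 to 0.47. The cause was not tested. KCNQ1OT1 gave no value with limma, since its FPKM was listed as equal in all libraries.

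Samples with the same replicate number did not deviate together (r of -0.06, -0.01 and -0.02 across genes). This cannot tell whether they shared a culture or a batch. With the replicate block 1 member was higher and 2 lower, as without it, and 5467 genes passed. Lower genes of speckle proteins went from 4 to 2 and lower genes of decay factors from 8 to 5. Depth limits KCNQ1OT1, LINC-PINT and MIR22HG, which had 15 to 46 counts in a library.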

Other observations

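The genes whose profile over the 6 libraries lay closest to a nuclear member were found by the root mean square difference of log2 CPM, each gene centred on its own mean, among the 11547 other genes whose FPKM averaged 1 or more (11548 for KCNQ1OT1). For NEAT1 these were CRTC1 (0.025) and ZNF408 (0.033), against a root mean square of 0.16 for the NEAT1 profile itself. For MALAT1 they were CTD-2523D13.2 (0.06) and RP11-432I5.2 (0.08), against 0.27, and for KCNQ1OT1 they were FTH1P2 (0.04) and LDHB (0.08), against 0.22. Among so many genes some profile over 6 points will lie close to any other, so these are descriptions only.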
